A study of Mus musculus with 16 samples.

Results

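The interleukins, the colony-stimulating factors (CSFs) and their receptors were described in the mouse aorta. Members were all protein-coding genes of the deposited table whose symbol begins with Il or Csf followed by a digit, which gave 92 of 54532 genes (22046 of them protein-coding). By role, 40 members encode ligands, 45 receptor chains, 6 antagonists or decoys and 1 an enzyme (Il4i1).

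Interleukins and CSFs are secreted proteins that signal through paired receptor chains. Members of the IL-1 family signal through Myd88 and NF-kappaB and are held in check by a receptor antagonist and decoy receptors, whereas IL-6 and IL-11 share the gp130 chain (Il6st) and act through JAK kinases and Stat3. GM-CSF and IL-3 share the common beta chain, and M-CSF and IL-34 share the receptor Csf1r, which macrophages need to survive.

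Bulk RNA sequencing was performed on 16 aortas of male C57BL/6J mice, 1 library per mouse and 4 mice per group, to find what distinguishes the aorta when high phosphate and low protein are combined with chronic kidney disease. Surgery took place at 12 weeks of age, either 5/6 nephrectomy (5/6 Nx), which leaves a remnant of the kidney tissue, or sham surgery, and was followed by 2 weeks of recovery. Sham and 5/6 Nx-HPi-Lp mice received the same diet with 2% phosphorus and 2.5% protein, 5/6 Nx-HPi-Hp mice 2% phosphorus and 18% protein, and 5/6 Nx-LPi-Lp mice 0.3% phosphorus with 2.5% protein, during 30 days per the labels and 4 weeks per the study's methods. The Sham mice thus carry the high-phosphate low-protein diet too, and against the 5/6 Nx-HPi-Lp mice they differ in surgery, the 5/6 Nx-HPi-Hp mice in protein and the 5/6 Nx-LPi-Lp mice in phosphorus.

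Library totals were 20795568 to 24204348 counts in Sham mice, 13659525 to 18186113 in 5/6 Nx-HPi-Hp mice and 13738098 to 21547424 in 5/6 Nx-LPi-Lp mice. They were uneven among 5/6 Nx-HPi-Lp mice, with 15665005, 57276915, 46499243 and 15013203 in replicates 1 to 4. Mitochondrially encoded genes took 4.18% to 6.34% of the counts in Sham libraries and 9.50% to 29.0% in the 5/6 Nx libraries. The defining smooth muscle genes (Myh11, Acta2, Tagln, Cnn1, Lmod1) were present in every library, at a summed 20200 to 24300 CPM (a gene's counts scaled to a common library total after TMM adjustment) in Sham mice and 1790 to 4120 CPM in 5/6 Nx-HPi-Lp mice. In whole tissue, fewer cells of a type and less RNA per cell cannot be told apart.

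Not all members were measurable. No count was found for 10 members in any library, and a further 26 had under 100 counts over all 16 libraries. In at least 1 comparison, 49 members passed the filter on low counts and were tested. The 43 others included the T-cell and innate lymphoid cytokines Il2, Il3, Il5, Il9, Il13, Il17a, Il17f, Il21 and Il22, the IL-12 and IL-23 subunits Il12a, Il12b and Il23a, and, despite signal in single groups, Il6, Csf2, Csf3 and Il10.

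Levels between genes were compared as FPKM (fragments scaled to gene length and library size). In Sham aortas the highest member was Il11ra1, the IL-11 receptor chain, at 105.4 ± 9.25 FPKM (mean ± SD, n = 4). It was followed by Il17rc, a chain of the IL-17 receptor (31.1 ± 3.46 FPKM), Il6st (27.6 ± 2.99 FPKM), the macrophage growth factor Csf1 (18.5 ± 0.90 FPKM) and Csf2ra, the GM-CSF receptor alpha chain (11.3 ± 1.16 FPKM). The ranges of mean ± SD of Il17rc and Il6st overlapped, while Il11ra1 stood clear of both. Thus receptor chains, more than ligands, led the family in the control aorta. Among 5/6 Nx-HPi-Lp mice Il33, a nuclear alarmin released by damaged cells, moved up to 53.9 ± 26.5 FPKM, beside Il11ra1 at 55.7 ± 11.3 FPKM, and these levels did not differ beyond their spread. The number of members with a mean above 1 FPKM was 24 in Sham, 38 in 5/6 Nx-HPi-Lp, 31 in 5/6 Nx-HPi-Hp and 28 in 5/6 Nx-LPi-Lp mice.

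A gene passed when edgeR's quasi-likelihood test gave an adjusted p no higher than 0.05 and the log2 fold change reached 1 in either direction. Against Sham mice, 25 members rose and 1 fell in 5/6 Nx-HPi-Lp mice among 49 tested (53.1%), beside 22.2% called among all genes tested (15.0% higher and 7.18% lower). Against 5/6 Nx-HPi-Hp mice 16 rose (32.7%, beside 8.12% called and 5.01% higher), and against 5/6 Nx-LPi-Lp mice 19 rose (38.8%, beside 11.9% called and 7.9% higher), and none fell in either. Several members passed the filter through the 5/6 Nx-HPi-Lp libraries alone, so these shares describe the tested members and carry no test. With at least 10 counts required in every library, 20 rose and 1 fell of 39 members against Sham mice, 11 rose and 1 fell of 37 against 5/6 Nx-HPi-Hp mice, and 12 rose of 36 against 5/6 Nx-LPi-Lp mice.

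A set of 15 members rose in 5/6 Nx-HPi-Lp mice against each of the other 3 groups, where 3.96% of all genes tested did so. They were the ligands Il1b, Il11 and Il33, the antagonist Il1rn, the decoy receptor Il1r2, and the receptor chains Csf1r, Csf2rb, Csf2rb2, Csf3r, Il4ra, Il10ra, Il13ra1, Il17ra, Il18rap and Il1rl2. Replicate 1 was the lowest of the 4 mice for 15 of 15 of these genes, replicate 2 was the highest for 12 and replicate 3 for 3. Replicates 2 and 3 were also the deepest libraries. When both were left out, 2 mice were compared with 4. The members called were then 20 higher and 3 lower against Sham mice and 16 higher against 5/6 Nx-LPi-Lp mice. Only 5 were called higher against 5/6 Nx-HPi-Hp mice. With all mice kept and counts thinned to the lowest library total, 23 members rose and 1 fell against Sham mice. In that setting 15 rose against 5/6 Nx-HPi-Hp and 19 against 5/6 Nx-LPi-Lp mice. Replicate 4 (15013203 counts), about as deep as replicate 1 (15665005 counts), was the lowest mouse for 0 of 15 genes. The part of depth in the order of the mice was not tested.

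**Figure D1:**
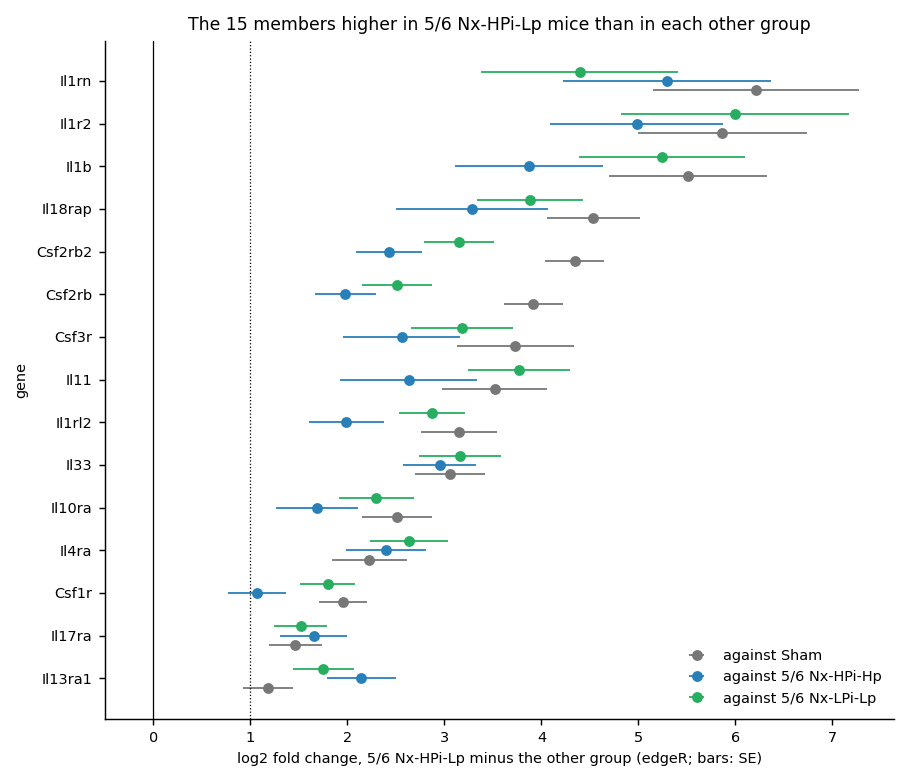
log2 fold change (x axis, edgeR, bars SE, 4 against 4 mice) of the 15 members (y axis) that rose in 5/6 Nx-HPi-Lp mice against Sham (grey), 5/6 Nx-HPi-Hp (blue) and 5/6 Nx-LPi-Lp mice (green), with the threshold of 1 dotted. Il1rn, Il1r2 and Il1b lie at the top, at 3.87 to 6.21 in the 3 comparisons, and Il17ra and Il13ra1 lie at the bottom.

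Markers of several cell types also differed between the groups. The summed level of 9 macrophage genes (Adgre1, Cd68, Cd14, Fcgr1, Mertk, C1qa, C1qb, C1qc, Lyz2) was 302 to 423 CPM in Sham, 716 to 2470 CPM in 5/6 Nx-HPi-Lp, 355 to 687 CPM in 5/6 Nx-HPi-Hp and 275 to 415 CPM in 5/6 Nx-LPi-Lp mice. Among the 5/6 Nx-HPi-Lp mice, replicate 1 had the lowest and replicate 2 the highest macrophage sum. The sum of 6 neutrophil genes reached 28.4 CPM in 5/6 Nx-HPi-Lp mice, was higher in each of them than in all other mice, and was at most 4.70 CPM in any other mouse, with Ly6g at 0 in all 5/6 Nx-HPi-Lp, Sham and 5/6 Nx-LPi-Lp libraries. Mast cell genes summed to 20.5 to 45.8 CPM in Sham mice and to 54.7 to 404 CPM in the 5/6 Nx groups. Adipocyte genes summed to 118 to 393 CPM in Sham mice. Their sums were 941 to 1610 CPM in 5/6 Nx-HPi-Lp, 341 to 2310 CPM in 5/6 Nx-HPi-Hp and 766 to 2270 CPM in 5/6 Nx-LPi-Lp mice. Of these 4 genes, 3, 4 and 4 were higher against Sham mice in the same order, beside 15.0%, 9.41% and 8.79% of all genes tested. Of 2 brown adipocyte genes, 1, 2 and 2 were higher, beside the same shares. Fibroblast genes summed to 1310, 3010, 1980 and 1920 CPM in 5/6 Nx-HPi-Lp replicates 1 to 4, again with replicate 1 lowest and replicate 2 highest, to 995 to 1700 CPM in Sham mice, to 679 to 1230 CPM in 5/6 Nx-HPi-Hp and to 612 to 1170 CPM in 5/6 Nx-LPi-Lp mice, and 4 of 5 of them were higher against each diet control. Sympathetic neuron genes summed to 18.8 to 821 CPM in 5/6 Nx-HPi-Lp mice and at most 2.44 CPM in Sham mice. Their sums were 2.77 to 126 CPM in 5/6 Nx-HPi-Hp and 1.52 to 80.2 CPM in 5/6 Nx-LPi-Lp mice. Pancreas acinar genes summed to 13.6 to 74.8 CPM in 5/6 Nx-HPi-Lp mice and at most 6.82 CPM in Sham mice. Their sums were 2.90 to 7.98 CPM in 5/6 Nx-HPi-Hp and 11.6 to 23.3 CPM in 5/6 Nx-LPi-Lp mice. Among the 5/6 Nx-HPi-Lp mice, replicate 2 had the lowest sum of both lists. The part of these cell types in the results was not tested.

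**Figure D2:**
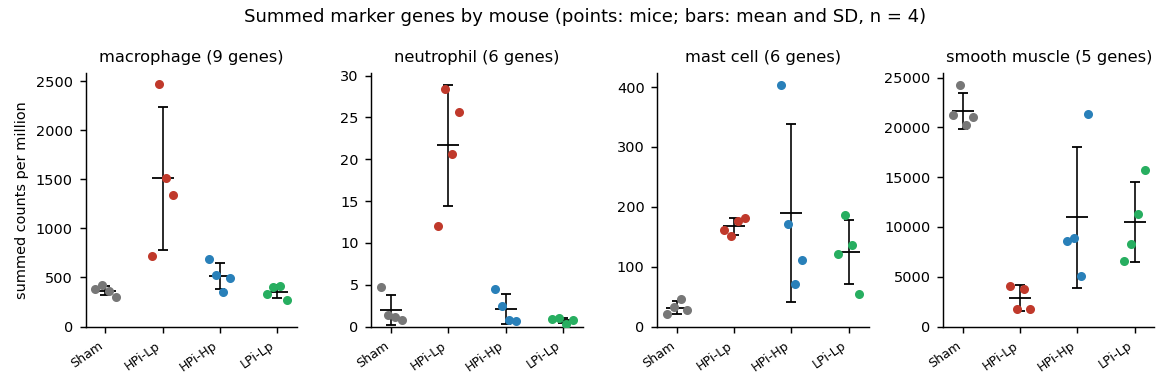
Summed CPM (y axis) of macrophage, neutrophil, mast cell and smooth muscle marker genes in each mouse (points) of the 4 groups (x axis), with mean and SD (bars, n = 4). The macrophage and neutrophil sums of all 5/6 Nx-HPi-Lp mice lie above those of all other mice, and their smooth muscle sums lie below.

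Among members that passed the filter, the IL-1 family held the 4 largest log2 fold changes in each comparison of 5/6 Nx-HPi-Lp mice. They belonged to Il1rn, Il1r2, Il1b and Il18rap. These passed the filter only in comparisons with 5/6 Nx-HPi-Lp mice, so the rank carries no test. Of the 12 tested members of the family, 9 rose in 5/6 Nx-HPi-Lp mice against Sham mice, beside 15.0% higher among all genes tested. Against 5/6 Nx-HPi-Hp mice 7 rose (beside 5.01%), against 5/6 Nx-LPi-Lp mice 7 rose (beside 7.9%), and none fell. These counts include the same 4 genes and carry no test either. Il1b, the secreted pro-inflammatory form of IL-1 (chr2:129364570-129371139, GRCm38), was at 1.70, 30.0, 13.4 and 10.4 CPM in 5/6 Nx-HPi-Lp mice. It was at 0.12 to 0.39 CPM in Sham, 0.49 to 1.51 CPM in 5/6 Nx-HPi-Hp and 0.11 to 0.51 CPM in 5/6 Nx-LPi-Lp mice. Every 5/6 Nx-HPi-Lp mouse lay above every other mouse, although replicate 1 exceeded the highest 5/6 Nx-HPi-Hp mouse only narrowly. The log2 fold change was 5.51 (SE 0.82, adjusted p = 0.000598) against Sham, 3.87 (SE 0.76, adjusted p = 0.0134) against 5/6 Nx-HPi-Hp and 5.24 (SE 0.85, adjusted p = 0.00460) against 5/6 Nx-LPi-Lp mice. Against 5/6 Nx-HPi-Hp mice the call was lost without 5/6 Nx-HPi-Hp replicate 2 or without both deep libraries, with adjusted p of up to 0.101 over the alternatives. Il1a, the other IL-1 ligand, reached at most 0.22 CPM in any mouse and was not tested.

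The inhibitors of IL-1 rose with the ligand. Il1rn, which encodes the IL-1 receptor antagonist (chr2:24336853-24351494), was at 0.82, 24.5, 11.9 and 5.42 CPM in 5/6 Nx-HPi-Lp mice and at 0 to 0.23 CPM in Sham mice. One 5/6 Nx-LPi-Lp mouse reached 1.14 CPM and so overlapped replicate 1. The log2 fold change was 6.21 (SE 1.06, adjusted p = 0.00130) against Sham, 5.30 (SE 1.07, adjusted p = 0.0146) against 5/6 Nx-HPi-Hp and 4.40 (SE 1.01, adjusted p = 0.0175) against 5/6 Nx-LPi-Lp mice. The calls of Il1rn against both diet controls were lost without the deep libraries, and that against 5/6 Nx-LPi-Lp mice also without 5/6 Nx-LPi-Lp replicate 3, with adjusted p of up to 0.169 and 0.162. Il1r2, a decoy that binds IL-1 without signaling, was at 0.82, 10.4, 8.79 and 6.39 CPM in 5/6 Nx-HPi-Lp mice and at most 0.38 CPM in any other mouse. Its log2 fold change was 5.86 (SE 0.87, adjusted p = 0.000605) against Sham, 4.98 (SE 0.89, adjusted p = 0.00939) against 5/6 Nx-HPi-Hp and 6.00 (SE 1.18, adjusted p = 0.00953) against 5/6 Nx-LPi-Lp mice. Against 5/6 Nx-HPi-Hp mice the Il1r2 call did not survive leaving out the deep libraries.

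The signaling receptor of IL-1 followed another pattern. Il1r1 was at 46.0 to 61.0 CPM in Sham mice, at 52.7, 137, 132 and 73.3 CPM in 5/6 Nx-HPi-Lp mice, at 19.1 to 40.6 CPM in 5/6 Nx-HPi-Hp and at 21.8 to 39.5 CPM in 5/6 Nx-LPi-Lp mice. It rose against 5/6 Nx-HPi-Hp (log2 fold change 1.84, SE 0.34, adjusted p = 0.0103) and 5/6 Nx-LPi-Lp mice (1.75, SE 0.33, adjusted p = 0.00780) but was not called against Sham mice (0.89, SE 0.28, adjusted p = 0.0254). The 2 diet controls lay below Sham mice without overlap, at log2 fold changes of -0.93 (adjusted p = 0.0130) and -0.81 (adjusted p = 0.00863), short of the fold threshold. The 5 fibroblast genes had medians of -0.69 and -0.76 in the same comparisons, and their part in the Il1r1 result was not tested. Without the deep libraries the call against 5/6 Nx-HPi-Hp mice was lost. Il1rap, the accessory chain that IL-1, IL-33 and IL-36 receptors share, was at 5.21 to 8.01 CPM in 5/6 Nx-HPi-Lp and 6.51 to 7.52 CPM in Sham mice. It fell in 5/6 Nx-HPi-Hp mice (1.47 to 4.87 CPM, log2 fold change -1.06, SE 0.30, adjusted p = 0.0275), a call that leaving out any 1 of the 4 Sham libraries or of 5/6 Nx-HPi-Hp replicates 1 and 2 ended.

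Promoter sequence of these genes is shown because the antagonist has several start sites and because Il1b, Il1rn and Il6 are textbook targets of inflammatory factors. The 250 bases before each RefSeq start (GRCm38.p6) were searched on both strands for the letters of NF-kappaB (GGG and CC with any 5 bases between them), AP-1 (TGANTCA), C/EBP (TTGCNNAA), STAT (TTCNNNGAA) and ETS/PU.1 (GAGGAAG) motifs, and matches are in capitals. Il1b lies on the minus strand (chr2:129371140-129371389) and the others on the plus strand (Il1rn start 1 chr2:24336610-24336859, start 3 chr2:24345121-24345370, Il6 chr5:30012864-30013113, Il18rap chr1:40515112-40515361).
Il1b: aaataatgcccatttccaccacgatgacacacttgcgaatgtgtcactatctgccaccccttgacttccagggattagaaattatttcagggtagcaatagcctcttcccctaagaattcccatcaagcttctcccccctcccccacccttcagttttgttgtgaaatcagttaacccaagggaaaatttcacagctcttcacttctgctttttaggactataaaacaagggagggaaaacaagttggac
Il1rn, start 1: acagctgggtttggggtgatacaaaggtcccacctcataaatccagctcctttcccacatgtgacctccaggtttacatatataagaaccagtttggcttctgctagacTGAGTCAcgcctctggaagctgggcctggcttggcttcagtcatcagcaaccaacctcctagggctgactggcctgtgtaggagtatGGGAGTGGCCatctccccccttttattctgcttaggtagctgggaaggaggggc
Il1rn, start 3: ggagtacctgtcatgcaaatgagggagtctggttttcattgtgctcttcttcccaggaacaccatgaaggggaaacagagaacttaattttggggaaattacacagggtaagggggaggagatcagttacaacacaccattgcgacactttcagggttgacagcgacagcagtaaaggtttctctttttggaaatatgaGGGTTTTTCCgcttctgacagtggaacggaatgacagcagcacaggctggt
Il6: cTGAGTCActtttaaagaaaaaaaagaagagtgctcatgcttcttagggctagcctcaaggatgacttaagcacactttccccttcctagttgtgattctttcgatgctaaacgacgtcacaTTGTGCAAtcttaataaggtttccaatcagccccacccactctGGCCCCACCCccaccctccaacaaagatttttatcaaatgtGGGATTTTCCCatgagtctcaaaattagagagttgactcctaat
Il18rap: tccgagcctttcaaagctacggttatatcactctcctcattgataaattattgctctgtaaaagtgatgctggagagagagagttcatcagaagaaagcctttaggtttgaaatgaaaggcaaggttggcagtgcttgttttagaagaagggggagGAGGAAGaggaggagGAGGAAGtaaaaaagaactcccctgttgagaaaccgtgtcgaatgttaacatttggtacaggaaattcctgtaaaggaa

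The Il6 window held the AP-1 letters 249 bases, the C/EBP letters 128 bases and NF-kappaB letters 85, 44 and 43 bases before the start, the last pair overlapping. Il1rn held AP-1 and NF-kappaB letters 141 and 54 bases before start 1 and NF-kappaB letters 51 bases before start 3. The window of its start 2 (chr2:24345041-24345290, sequence not shown) held none of the 5 motifs. Il18rap held the ETS/PU.1 letters 94 and 79 bases before its start, and the Il1b window held none of the 5 motifs. NF-kappaB letters stood in 33.3% of the 15 promoters found for 11 of the 15 genes above and in 45.8% of all 32851 promoters. For AP-1 the shares were 13.3% and 6.75%, for C/EBP 13.3% and 9.56% and for STAT 13.3% and 7.02%, so that 2 of 15 promoters made up each of these shares. For ETS/PU.1 it was 3 of 15 promoters and 10.6% of all. A match describes letters only.

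**Figure D3:**
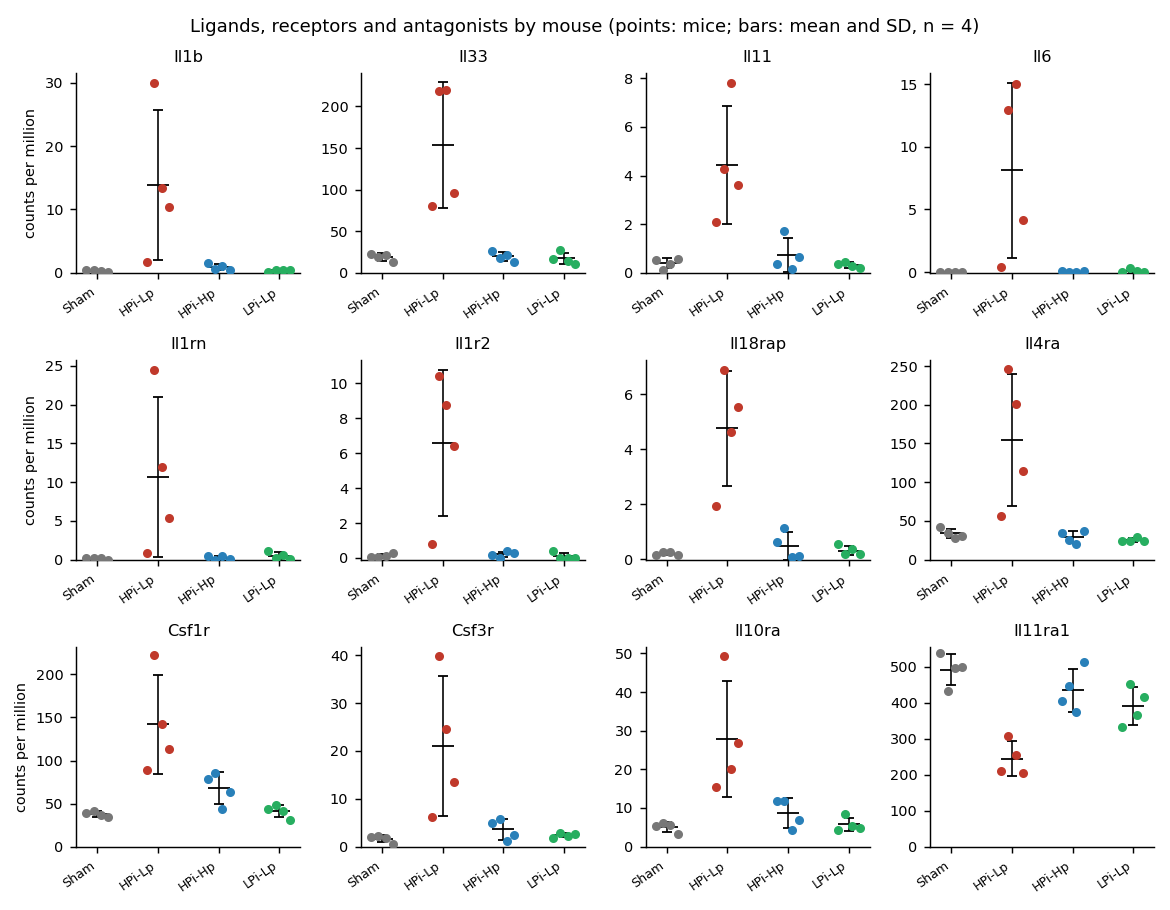
CPM (y axis) of 12 members in each mouse (points) of the 4 groups (x axis), with mean and SD (bars, n = 4). In 11 panels the 5/6 Nx-HPi-Lp mice are high and spread widely, with replicate 1 lowest, and in the last panel Il11ra1 is lower in all 4 of them, at 204 to 309 CPM, than in any other mouse.

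Il33, the ligand with the highest FPKM among 5/6 Nx-HPi-Lp mice, rose against all groups, whereas Csf1 was the highest ligand in each other group. It was at 80.8, 218, 219 and 95.8 CPM in 5/6 Nx-HPi-Lp mice, 12.7 to 22.8 CPM in Sham, 13.4 to 26.2 CPM in 5/6 Nx-HPi-Hp and 11.2 to 27.4 CPM in 5/6 Nx-LPi-Lp mice. Both shallow libraries of the 5/6 Nx-HPi-Lp group lay well above all other mice, and the groups did not overlap. The log2 fold changes of 3.06 (SE 0.36, adjusted p = 0.000167), 2.95 (SE 0.37, adjusted p = 0.00348) and 3.16 (SE 0.42, adjusted p = 0.00230) against Sham, 5/6 Nx-HPi-Hp mice and 5/6 Nx-LPi-Lp mice were lost under no alternative. Its receptor Il1rl1 (ST2) rose against Sham mice (4.58 to 6.74 against 1.195 to 1.895 CPM, log2 fold change 2.03, SE 0.28, adjusted p = 0.000374), but its values overlapped those of the diet controls (0.06, SE 0.44, and 0.62, SE 0.35). Thus the ligand was high in 1 of the 5/6 Nx groups and the receptor was called against Sham mice in all 3, although 1 5/6 Nx-LPi-Lp mouse (1.76 CPM) lay within the Sham range. ST2 is a known mast cell receptor, and the mast cell sum given above was higher in all 5/6 Nx mice than in Sham mice. Its part in the Il1rl1 result was not tested.

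IL-18 signaling genes moved unequally. The ligand Il18 rose against Sham mice (3.05 to 4.80 against 0.66 to 1.75 CPM, log2 fold change 1.72, SE 0.37, adjusted p = 0.00477), as did Il18bp, its soluble inhibitor (1.14, SE 0.27, adjusted p = 0.00690), a call lost without the deep libraries. Il18bp overlaps Numa1 on the opposite strand. Il18rap, the accessory receptor chain, was at 1.95, 6.89, 4.64 and 5.55 CPM in 5/6 Nx-HPi-Lp mice and at most 1.14 CPM in any other mouse. Its log2 fold change was 4.53 (SE 0.48, adjusted p = 9.98e-05) against Sham, 3.28 (SE 0.78, adjusted p = 0.0257) against 5/6 Nx-HPi-Hp and 3.88 (SE 0.55, adjusted p = 0.00287) against 5/6 Nx-LPi-Lp mice. The call against 5/6 Nx-HPi-Hp mice was lost without 5/6 Nx-HPi-Lp replicate 2, 3 or 4 or 5/6 Nx-HPi-Hp replicate 1. The ligand-binding chain Il18r1 was not called (0.76, 2.97, 6.21 and 1.55 CPM against 0.59 to 1.66 CPM in Sham mice, log2 fold change 1.63, SE 0.62, adjusted p = 0.0585).

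A row of 6 IL-1 family receptor genes lies side by side on chromosome 1, with no other listed gene between them, from Il1r2 (chr1:40074079-40125231) through Il1r1, Il1rl2, Il1rl1 and Il18r1 to Il18rap (chr1:40515362-40551705). Neighbours differed in their response. Il1rl2, the IL-36 receptor, rose against all groups (6.18, 15.2, 7.73 and 12.4 CPM against 0.63 to 1.62 CPM in Sham mice, log2 fold change 3.15, SE 0.39, adjusted p = 0.000229). Between it and Il18rap lie Il1rl1, called only against Sham mice, and Il18r1, called in no comparison. The IL-36 ligands Il1f6 and Il1f8 had no count in any library and Il1f9, chosen here after its values were seen, was at 0.19 to 0.80 CPM in 5/6 Nx-HPi-Lp mice and at most 0.08 CPM in Sham mice, but 5/6 Nx-HPi-Hp replicate 1 lay within that range at 0.32 CPM.

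**Figure D4:**
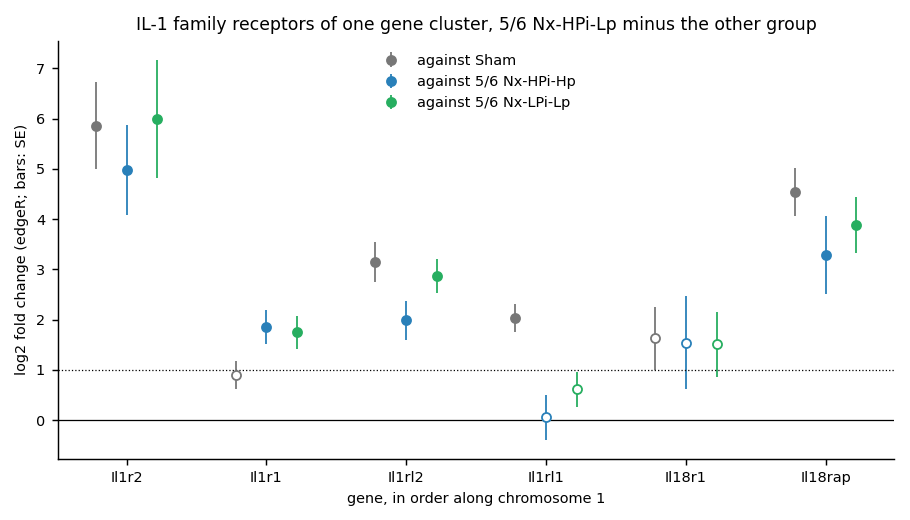
log2 fold change (y axis, edgeR, bars SE, 4 against 4 mice) of the IL-1 family receptor genes in their order along chromosome 1 (x axis), 5/6 Nx-HPi-Lp minus Sham (grey), 5/6 Nx-HPi-Hp (blue) and 5/6 Nx-LPi-Lp mice (green), with filled points for called genes. Il1r2 and Il18rap at the ends are highest in each comparison, and Il1rl1 in the middle is near 0 against 5/6 Nx-HPi-Hp mice.

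The gp130 ligands Il6 and Il11 were low outside the 5/6 Nx-HPi-Lp mice. Il6 (chr5:30013114-30019981), a fever and acute-phase cytokine, was at 0.38, 12.9, 15.02 and 4.19 CPM in 5/6 Nx-HPi-Lp mice and had 1 count in all Sham libraries together, 2 in 5/6 Nx-HPi-Hp and 6 in 5/6 Nx-LPi-Lp libraries. No other mouse exceeded 0.31 CPM, so that replicate 1 stood only just above the rest. The mean CPM stood at a ratio of 721 to Sham mice, 300.0 to 5/6 Nx-HPi-Hp and 84.1 to 5/6 Nx-LPi-Lp mice. With counts pooled over the libraries of a group, where the deep libraries weigh most, the ratios were 1070 (95% counting interval 192 to 42400), 348 (96.1 to 2870) and 128 (58.8 to 350.0). These intervals cover counting error only, and not the spread between mice. Il6 missed the filter on low counts. Without the filter, edgeR gave an adjusted p of 8.06e-05 against Sham mice and DESeq2 5.64e-08.

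Il11, a gp130 cytokine known for its action on fibroblasts and smooth muscle, was at 2.08, 4.26, 7.82 and 3.61 CPM in 5/6 Nx-HPi-Lp mice, 0.13 to 0.55 CPM in Sham, 0.15 to 1.72 CPM in 5/6 Nx-HPi-Hp and 0.19 to 0.44 CPM in 5/6 Nx-LPi-Lp mice. The groups did not overlap, and the log2 fold change was 3.52 (SE 0.54, adjusted p = 0.000747), 2.63 (SE 0.71, adjusted p = 0.0378) and 3.77 (SE 0.52, adjusted p = 0.00265). Against 5/6 Nx-HPi-Hp mice the call was lost without 5/6 Nx-HPi-Lp replicate 2, 3 or 4 or 5/6 Nx-HPi-Hp replicate 1, 3 or 4, with adjusted p of up to 0.227. Its receptor did not rise with it. Il11ra1 was at 211, 309, 256 and 204 CPM in 5/6 Nx-HPi-Lp mice, below all other mice (332 to 539 CPM), but its log2 fold changes of -0.95 (SE 0.15, adjusted p = 0.000756), -0.82 (SE 0.19, adjusted p = 0.0243) and -0.67 (SE 0.18, adjusted p = 0.0309) stayed short of the fold threshold. Il11ra1 has near copies (Il11ra2) and overlaps Galt and other genes, so its counts are uncertain.

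The receptor chains of IL-6 differed from each other. Il6ra rose against Sham mice (14.9 to 28.7 against 4.86 to 7.34 CPM, log2 fold change 1.81, SE 0.25, adjusted p = 0.000374). The shared chain Il6st was at 252 to 418 CPM in 5/6 Nx-HPi-Lp and 271 to 356 CPM in Sham mice (log2 fold change 0.07, SE 0.16, adjusted p = 0.764). The Il6st values of these groups overlapped.

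Among the receptors of IL-4, IL-13 and IL-10, Il4ra (chr7:125552120-125579474) was at 56.5, 246, 201 and 115 CPM in 5/6 Nx-HPi-Lp mice and at most 42.3 CPM in any other mouse. Its log2 fold change was 2.23 (SE 0.39, adjusted p = 0.00142) against Sham, 2.40 (SE 0.41, adjusted p = 0.00796) against 5/6 Nx-HPi-Hp and 2.63 (SE 0.40, adjusted p = 0.00365) against 5/6 Nx-LPi-Lp mice. Its partner Il13ra1 rose by 1.18 (SE 0.26, adjusted p = 0.00530), 2.15 (SE 0.36, adjusted p = 0.00722) and 1.75 (SE 0.32, adjusted p = 0.00685), and the first of these calls was lost without 5/6 Nx-HPi-Lp replicate 2. The ligand Il4 was at 0.61 to 4.22 CPM in 5/6 Nx-HPi-Lp and 1.42 to 3.39 CPM in Sham mice, and Il13 had counts in 2 libraries only. Il13ra2, the IL-13 decoy, was under the filter, at 0 to 1.02 CPM in 5/6 Nx-HPi-Lp mice and up to 1.23 CPM in 5/6 Nx-HPi-Hp mice.

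Il10ra, the chain that binds the anti-inflammatory IL-10, was at 15.3, 49.4, 20.2 and 26.8 CPM in 5/6 Nx-HPi-Lp mice and 3.28 to 6.03 CPM in Sham mice (log2 fold change 2.51, SE 0.36, adjusted p = 0.000496). Against 5/6 Nx-HPi-Hp mice it was 1.69 (SE 0.42, adjusted p = 0.0303). That Il10ra call was lost without both deep libraries, without 5/6 Nx-HPi-Lp replicate 2 or 4, or without 5/6 Nx-HPi-Hp replicate 2, 3 or 4. Il10rb, which other receptors share, was not called (0.51, SE 0.18, adjusted p = 0.0412 against Sham mice). Il10 itself was counted in 1 of 4 5/6 Nx-HPi-Lp mice (0.75 CPM in replicate 2), and in 2 of the 5/6 Nx-HPi-Hp and 1 of the 5/6 Nx-LPi-Lp mice.

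Calls of lymphocyte cytokine receptors rested on few mice. Il2rg, the common gamma chain, was called against Sham mice at 2.46, 20.7, 10.3 and 8.38 CPM against 3.20 to 5.30 CPM (log2 fold change 1.46, SE 0.51, adjusted p = 0.0419), with overlap. Il7r was called against Sham (1.85, SE 0.62, adjusted p = 0.0366) and 5/6 Nx-LPi-Lp mice (2.66, SE 0.73, adjusted p = 0.0321), also with overlap. Leaving out any Sham library or 5/6 Nx-HPi-Lp replicate 2 or 4 ended both calls against Sham mice, and replicate 3 ended that of Il2rg. The call of Il7r against 5/6 Nx-LPi-Lp mice was lost without 5/6 Nx-HPi-Lp replicate 2 or 4 or 5/6 Nx-LPi-Lp replicate 1, 3 or 4. Il21r was called against 5/6 Nx-LPi-Lp mice only (log2 fold change 2.36, SE 0.56, adjusted p = 0.0189). Il7 did not differ detectably (0.61 to 1.29 CPM against 0.66 to 1.17 CPM in Sham mice, adjusted p = 0.714). Thymocyte genes summed to 6.20 to 38.8 CPM in Sham and 0.13 to 1.39 CPM in 5/6 Nx-HPi-Lp mice, and their part in these receptor values was not tested.

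In the IL-17 group, Il17ra, the chain common to its receptors, rose against all 3 groups (16.3, 43.8, 32.0 and 26.9 CPM against 8.21 to 12.7 CPM in Sham mice, log2 fold change 1.46, SE 0.27, adjusted p = 0.00211). Leaving out the deep libraries ended its calls against Sham and 5/6 Nx-HPi-Hp mice. Il17rc was at 72.9 to 122 CPM in 5/6 Nx-HPi-Lp and 75.2 to 97.6 CPM in Sham mice (log2 fold change 0.09, SE 0.17, adjusted p = 0.723). Il17b was the member that fell. It was at 0.82, 0.75, 2.12 and 0.77 CPM in 5/6 Nx-HPi-Lp and at 6.33 to 8.79 CPM in Sham mice, without overlap, at a log2 fold change of -2.64 (SE 0.38, adjusted p = 0.000519), and it fell in 5/6 Nx-LPi-Lp mice too (-1.47, SE 0.32, adjusted p = 0.00872). The smooth muscle sum was lower in these mice as well, and its part in the Il17b result was not tested.

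The M-CSF receptor rose and its ligand Csf1 did not. Csf1r was at 89.1, 222, 143 and 113 CPM in 5/6 Nx-HPi-Lp mice, 33.9 to 41.8 CPM in Sham, 43.8 to 85.2 CPM in 5/6 Nx-HPi-Hp and 31.5 to 48.5 CPM in 5/6 Nx-LPi-Lp mice. Log2 fold changes were 1.96 (SE 0.25, adjusted p = 0.000248), 1.07 (SE 0.30, adjusted p = 0.0437) and 1.80 (SE 0.28, adjusted p = 0.00407). The middle Csf1r call, against 5/6 Nx-HPi-Hp mice, was lost on leaving out any 1 of the 8 libraries but 5/6 Nx-HPi-Lp replicate 1, and without both deep libraries. Of its ligands, Csf1 was lower than in Sham mice (50.4 to 82.4 against 96.4 to 107 CPM, log2 fold change -0.51, SE 0.15, adjusted p = 0.0207), short of the fold threshold, and was likewise below Sham mice in both diet controls. The other ligand, Il34, was at 12.9, 3.60, 3.95 and 6.45 CPM in 5/6 Nx-HPi-Lp and 1.503 to 2.39 CPM in Sham mice and rose (1.86, SE 0.43, adjusted p = 0.00654). Here replicate 1 was the highest mouse, the reverse of its place for Csf1r.

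Csf3r, the G-CSF receptor of neutrophils, was at 6.18, 39.8, 24.6 and 13.6 CPM in 5/6 Nx-HPi-Lp mice and 0.51 to 2.27 CPM in Sham mice (log2 fold change 3.73, SE 0.60, adjusted p = 0.000972). Against 5/6 Nx-HPi-Hp mice it was 2.56 (SE 0.61, adjusted p = 0.0254). That Csf3r call was lost without both deep libraries, without 5/6 Nx-HPi-Lp replicate 2 or 3, or without 5/6 Nx-HPi-Hp replicate 2 or 3. Its ligand Csf3 was at 0, 1.15, 0.99 and 1.097 CPM in 5/6 Nx-HPi-Lp mice and at 0 in all Sham mice, at least 26.0-fold higher in mean CPM against a floor of 3 counts over the group. Csf2 (GM-CSF) had counts only in 5/6 Nx-HPi-Lp replicates 2 and 3 (0.56 and 0.60 CPM), at least 9.26-fold above Sham mice by the same floor. The lone zeros of shallower libraries do not show absence, since 3 counts could be missed at their depth.

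The chains that receive GM-CSF and IL-3 rose in more than 1 of the 5/6 Nx groups. Csf2rb, the common beta chain (chr15:78325752-78353847), was at 29.3, 74.3, 75.3 and 48.4 CPM in 5/6 Nx-HPi-Lp, 9.73 to 18.8 CPM in 5/6 Nx-HPi-Hp, 6.57 to 13.8 CPM in 5/6 Nx-LPi-Lp and 3.23 to 4.78 CPM in Sham mice. Each 5/6 Nx group lay wholly above Sham mice, with 5/6 Nx-HPi-Lp mice above all others. Against Sham mice the log2 fold change was 3.92 (SE 0.31, adjusted p = 2.65e-05) in 5/6 Nx-HPi-Lp, 1.96 (SE 0.25, adjusted p = 0.00737) in 5/6 Nx-HPi-Hp and 1.45 (SE 0.27, adjusted p = 0.00502) in 5/6 Nx-LPi-Lp mice. Against the diet controls it was 1.98 (SE 0.32, adjusted p = 0.00617) and 2.51 (SE 0.36, adjusted p = 0.00300). Csf2rb2, the IL-3-specific beta chain of the mouse, is a near copy in the same region of the chromosome, and reads may be shared between them, so the values of both are uncertain. It gave 4.34 (SE 0.30), 1.94 (SE 0.29) and 1.24 (SE 0.27) in the same 3 comparisons with Sham mice.

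The alpha chains rose less. Il3ra was at 49.2, 70.8, 60.1 and 63.5 CPM in 5/6 Nx-HPi-Lp and 13.7 to 16.8 CPM in Sham mice (log2 fold change 2.01, SE 0.13, adjusted p = 1.40e-05), and Csf2ra at 34.3 to 82.0 against 19.4 to 23.8 CPM (1.45, SE 0.26, adjusted p = 0.00175), a call lost without the deep libraries. Both rose in 5/6 Nx-HPi-Hp mice too (1.18, SE 0.19, and 1.17, SE 0.15). In 5/6 Nx-LPi-Lp mice they were at 0.62 (SE 0.13) and 0.59 (SE 0.13), with adjusted p of 0.00697 and 0.0101 but under the fold threshold.

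Nephrectomy with either control diet was also compared with Sham mice, which carry the high-phosphate low-protein diet. In 5/6 Nx-HPi-Hp mice 11 members rose and 1 fell of 45 tested (26.7%, beside 12.2% of all genes, 9.41% higher and 2.75% lower), and in 5/6 Nx-LPi-Lp mice 6 rose and 1 fell of 44 (15.9%, beside 10.9%, 8.79% higher and 2.08% lower). Without Sham replicate 1 the first count dropped to 7. The surgery comes here with a change of diet from Sham, so the effects of nephrectomy and of diet cannot be told apart in these 2 comparisons. The 3 comparisons with Sham mice share the same 4 control libraries.

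A set of 5 members rose in every 5/6 Nx group against Sham mice, where 3.79% of all genes tested did so. These were Csf2rb, Csf2rb2, Il1rl1, Il34 and Il15ra. Il15ra, which presents IL-15 to lymphocytes, was at 29.1 to 45.0 CPM in 5/6 Nx-HPi-Lp, 18.1 to 73.0 CPM in 5/6 Nx-HPi-Hp, 27.02 to 49.0 CPM in 5/6 Nx-LPi-Lp and 11.8 to 19.2 CPM in Sham mice. Its log2 fold changes were 1.24 (SE 0.18), 1.59 (SE 0.36) and 1.21 (SE 0.21), the last lost without 5/6 Nx-LPi-Lp replicate 1. Its ligand Il15 was called in no comparison. Il34 gave 1.86 (SE 0.43), 1.59 (SE 0.49) and 1.495 (SE 0.28), and its call in 5/6 Nx-HPi-Hp mice was lost without any 1 Sham library or 5/6 Nx-HPi-Hp replicate 1 or 3.

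Against Sham mice, a further 5 members were called higher both in 5/6 Nx-HPi-Lp mice and in 5/6 Nx-HPi-Hp mice but not in 5/6 Nx-LPi-Lp mice, a pattern of 1.97% of all genes tested, namely Csf2ra, Il3ra, Il18, Il1rl2 and Il6ra. The difference between the 2 diet controls was tested directly and none of the 5 was called in it. Il18 gave 1.32 (SE 0.37, adjusted p = 0.0257) in 5/6 Nx-HPi-Hp mice and lost the call without Sham replicate 1 or 3 or 5/6 Nx-HPi-Hp replicate 1. Il1rl2 (1.19, SE 0.41) and Il6ra (1.03, SE 0.32) lost it without any 1 Sham library or without 5/6 Nx-HPi-Hp replicate 1 or 3, and Il1rl2 also without replicate 2. Il17re, a chain of the IL-17C receptor, rose in 5/6 Nx-HPi-Hp (2.41 to 11.2 against 0.66 to 1.62 CPM, 2.44, SE 0.48, adjusted p = 0.0100) and 5/6 Nx-LPi-Lp mice (1.48, SE 0.43, adjusted p = 0.0273), and was at 0.96 (SE 0.36, adjusted p = 0.0539) in 5/6 Nx-HPi-Lp mice. That 5/6 Nx-LPi-Lp call of Il17re was lost without Sham replicate 1, 2 or 4 or 5/6 Nx-LPi-Lp replicate 1 or 2.

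**Figure D5:**
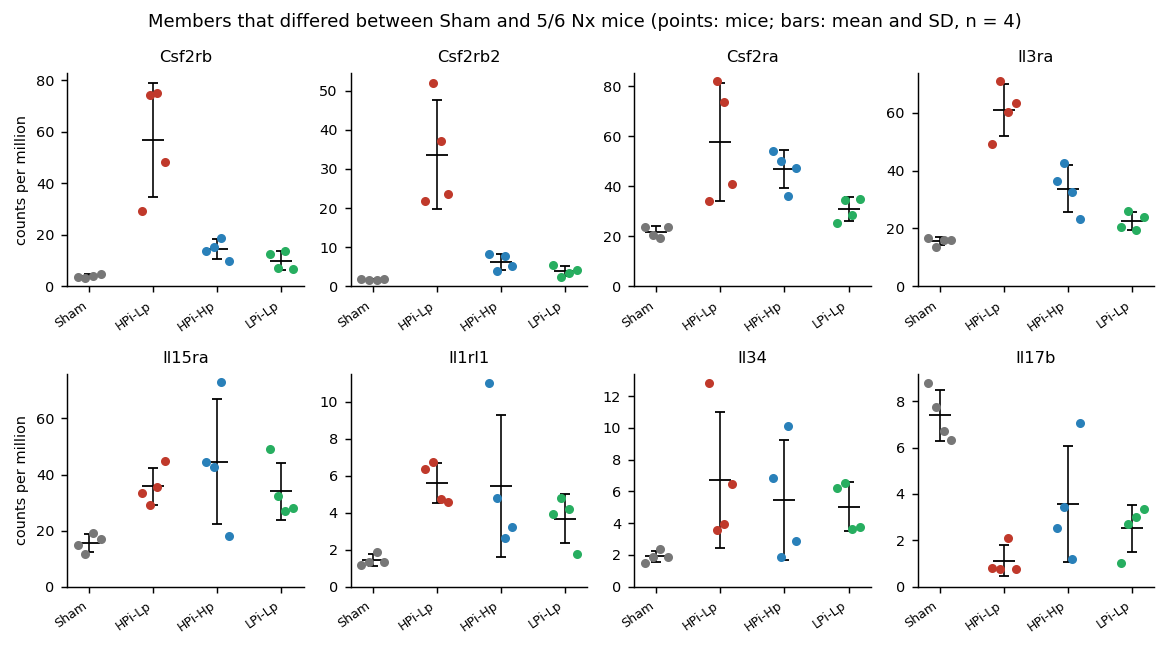
CPM (y axis) of 8 members in each mouse (points) of the 4 groups (x axis), with mean and SD (bars, n = 4). The means of Csf2rb and Il3ra step up from Sham mice to 5/6 Nx-LPi-Lp, then 5/6 Nx-HPi-Hp, then 5/6 Nx-HPi-Lp mice, Il15ra, Il1rl1 and Il34 overlap among the 5/6 Nx groups, and Il17b is highest in Sham mice.

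Between 5/6 Nx-HPi-Hp mice and 5/6 Nx-LPi-Lp mice, which differ in both phosphorus and protein, edgeR called 0 of 43 members and 0.0% of all genes. At an unadjusted p under 0.05 there were 5 members (8.96% of all genes passed this), and DESeq2 also called 0 members, with 76 genes called in all. The largest-level example was Csf2ra, at 36.1 to 53.9 CPM against 25.2 to 34.99 CPM (log2 fold change 0.59, SE 0.16, adjusted p = 0.492), which did not overlap and did not pass.

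Other genes of these pathways were described from lists of named genes. Of 15 JAK-STAT genes, 4 rose and none fell in 5/6 Nx-HPi-Lp mice against Sham mice, 1 rose against 5/6 Nx-HPi-Hp mice and 2 of 14 tested rose against 5/6 Nx-LPi-Lp mice, beside 15.0%, 5.01% and 7.9% higher among all genes, so these counts do not set the list apart. Socs3, the feedback inhibitor that gp130 signaling induces, was at 34.6, 96.6, 131 and 56.3 CPM in 5/6 Nx-HPi-Lp and 10.5 to 13.1 CPM in Sham mice, and rose against all 3 groups (log2 fold change 2.76, SE 0.36, 2.36, SE 0.39, and 3.01, SE 0.40). Jak3, the kinase of the common gamma chain, rose in every 5/6 Nx group against Sham mice (1.89, SE 0.17, 1.68, SE 0.29, and 1.44, SE 0.22). Stat3 was at 0.79 (SE 0.13, adjusted p = 0.00107) against Sham mice, under the fold threshold, at 0.98 (SE 0.17, adjusted p = 0.00776) against 5/6 Nx-HPi-Hp mice, likewise under it, and was called against 5/6 Nx-LPi-Lp mice (1.03, SE 0.15, adjusted p = 0.00350).

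Of 13 genes of IL-1 signaling and the inflammasome, 5 rose and 1 fell against Sham mice, beside 15.0% higher and 7.18% lower among all genes, with a median log2 fold change of 0.69. Against 5/6 Nx-HPi-Hp mice 1 rose and 1 fell, beside 5.01% higher among all genes. Against 5/6 Nx-LPi-Lp mice 3 rose and none fell, beside 7.9% higher. Nlrp3, the inflammasome sensor, was at 0.63, 4.22, 5.34 and 1.61 CPM in 5/6 Nx-HPi-Lp mice and 0.05 to 1.05 CPM in Sham mice (log2 fold change 2.44, SE 0.81, adjusted p = 0.0337) and rose against the diet controls too. The others that rose against Sham mice were Casp4, Gsdmd, Irak3, which restrains IL-1 signaling, and Irak4, while the kinase Irak2 fell (-1.38, SE 0.19, adjusted p = 0.000361). Casp4 and Gsdmd were called against neither diet control, and Irak3 and Irak4 only against 5/6 Nx-LPi-Lp mice. Casp4 also rose in 5/6 Nx-HPi-Hp mice against Sham mice (1.16, SE 0.23). Of 11 gp130 and TSLP genes outside the name rule, 6 of 10 tested rose against Sham mice (median 1.38), beside 15.0% of all genes. Among them were the ligand Osm (3.92, SE 0.71), its receptor Osmr (1.40, SE 0.19) and Tslp (2.00, SE 0.35). Against 5/6 Nx-HPi-Hp mice 2 of 10 rose and against 5/6 Nx-LPi-Lp mice 4 of 10, beside 5.01% and 7.9% of all genes. Osmr rose against both diet controls as well.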

How the data were processed

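Reads were filtered by the authors, mapped to mm10 by HISAT2 and summed per gene by featureCounts 1.5.0-p3, and FPKM were derived from them. The authors deposited whole-number counts without normalization and FPKM scaled between libraries. Strand and multi-mapping options are not given in the sources used here, so genes with near copies or antisense partners are uncertain. Beside counts and FPKM, the deposited data give gene length.

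edgeR 4.0.16 in R 4.3.3 was used for counts (filterByExpr, TMM, quasi-likelihood, Benjamini-Hochberg over all genes) in fits of the 8 libraries compared. CPM used library totals multiplied by TMM factors of all 16 libraries. Floors were 3 counts over a group. No 2 libraries of a group were copies (lowest chi-square per gene 21.9). Nothing ties replicate numbers to a shared litter or batch. Members and lists were chosen with earlier results of these data known. Members given with values were those higher against all 3 groups, the 3 highest and 3 lowest called members per comparison averaging 20 counts or more in a group, and ligand-receptor pairs. Alternatives used DESeq2 1.42.0, limma 3.58.1, other scalings, filters and left-out libraries, among them 5/6 Nx-HPi-Lp replicates 2 and 3 left out together, added after the data were seen. On simulated data for 5/6 Nx-HPi-Lp against Sham mice (16513 genes), edgeR called 32 of 100 genes changed 2-fold and 79 of 100 changed 4-fold, with 10 false among 121 calls. The 2-fold genes were set exactly at the fold threshold, so their estimates can fall under it at any sample size. Genes were drawn independently, so a mouse low for many genes at once was not simulated. Promoters came from RefSeq (GRCm38.p6), with 70 of 90 member symbols matched.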

Additional observations from a re-analysis of the deposited data

Results flagged for a closer look

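For normally distributed values, chance alone flags about 1 in 20 groups by Dixon's criterion for a mouse that stands apart. A group with 1 mouse above 0 and the rest at 0 is always flagged, so that rate does not apply to it. In 10 of 158 groups of 4 mice tested over the members given with values, 1 mouse stood apart by this criterion. Of these, 5 were members at or near 0, namely Csf3 at 0.0 CPM in 5/6 Nx-HPi-Lp replicate 1 (the other 3 mice at 0.994 to 1.15 CPM), Csf3 at 0.215 CPM in 5/6 Nx-HPi-Hp replicate 1, Il10 at 0.75 CPM in 5/6 Nx-HPi-Lp replicate 2, Il1a at 0.219 CPM in 5/6 Nx-HPi-Hp replicate 4 and Il1r2 at 0.379 CPM in 5/6 Nx-LPi-Lp replicate 1, with the other mice of the last 4 groups at 0.0 CPM. Il1b was at 0.119 CPM in Sham replicate 4, below 0.361 to 0.393 CPM in the others. Il15 was at 17.3 CPM in 5/6 Nx-LPi-Lp replicate 2 and at 5.61 to 7.20 CPM in the others. Il17b was at 2.12 CPM in 5/6 Nx-HPi-Lp replicate 3, above 0.75 to 0.82 CPM. Il1rl1 was at 1.89 CPM in Sham replicate 3, above 1.19 to 1.31 CPM, and Il4ra was at 28.9 CPM in 5/6 Nx-LPi-Lp replicate 3, above 23.9 to 24.0 CPM.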

How the results depend on the processing

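Over 207 results of members given with values, none reversed, 32 of 76 calls were lost under no alternative, and 33 other results were called under at least 1. The number of members called against 5/6 Nx-HPi-Hp mice (16) was 6 with limma on log2(FPKM + 1) without a filter. It was 5 without 5/6 Nx-HPi-Lp replicates 2 and 3, which put 2 mice against 4. With counts thinned to the lowest library total it was 15. Against 5/6 Nx-LPi-Lp mice (19) it was 12 with at least 10 counts in every library, where fewer members could be tested, and 12 with unfiltered limma. For 5/6 Nx-HPi-Hp against Sham mice (12) it was 21 without a fold threshold, 3 with limma, 7 with a pseudocount of 0.1 and 2 without a filter. For 5/6 Nx-LPi-Lp against Sham mice (7) these were 15, 1, 4 and 1. With limma's pseudocount of 1 the fold change of low genes is understated. Other causes were not tested.

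With each library left out in turn the counts ranged from 25 to 33 (5/6 Nx-HPi-Lp against Sham), 11 to 19 (against 5/6 Nx-HPi-Hp), 17 to 25 (against 5/6 Nx-LPi-Lp), 7 to 17 (5/6 Nx-HPi-Hp against Sham) and 5 to 7 (5/6 Nx-LPi-Lp against Sham), and stayed at 0 between the diet controls. Mice share only a number, and in no comparison did every same-numbered pair deviate together (correlations of -0.202 to 0.41). A replicate block on that number gave 25, 3, 16, 8, 6 and 0 members in the same order. Genes near the floor of 3 counts are limited by depth.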
